A study of Mus musculus with 16 samples.

Results

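A set of 6 genes of plasma membrane repair in skeletal muscle was followed in the tibialis anterior of Bin1mck-/- mice: Ahnak2, Ahnak, Dysf, Myof, S100a10 and Trim72. Their rows were found by matching the Ensembl identifiers of the count table to these symbols in the GENCODE annotation of GRCm38, which gave 6 of 6 genes among the 29730 of the table. All 6 were among the 14960 genes that passed the filter on low counts. Ahnak2 was selected because it had been a leading gene of KO_PBS vs WT_PBS, of KO_ASO vs KO_PBS and of the interaction between genotype and oligonucleotide. Its values in these 3 contrasts are therefore given as a description, without a test. The other 5 genes were taken for their role in repair or as partners of Ahnak, with earlier results of these data known.

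RNA sequencing covered 16 male mice of the strain C57BL/6N at 7 weeks of age, 4 in each of 4 groups. Wild-type mice received saline in WT_PBS and the antisense oligonucleotide ASO1 in WT_ASO. Bin1mck-/- knockout mice received saline in KO_PBS and ASO1 in KO_ASO. Antisense oligonucleotides are short synthetic strands that reduce the RNA they pair with, here that of Dnm2, which encodes the membrane-cutting GTPase dynamin 2. Bin1 encodes the membrane-bending protein amphiphysin 2. The sources used here do not give the promoter behind the mck deletion, the part of Bin1 removed, or the dose and timing of ASO1. Nor do they say whether the wild-type mice were littermates of the knockouts.

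Muscle fibres tear their plasma membrane during contraction and reseal it within moments. Calcium that enters through the tear brings vesicles to the wound, where dysferlin (Dysf), a ferlin with calcium-binding C2 domains, and the tripartite-motif protein Trim72, also called MG53, take part in building the patch. The very large scaffold protein Ahnak binds dysferlin and the complex of S100a10 with annexin A2. Ahnak2 is a related giant protein, and myoferlin (Myof) is a close relative of dysferlin known from myoblast fusion.

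Total counts per library ran from 27591900 to 40862854. Bin1 lay between 463 and 619.8 CPM (counts scaled to library size) in the 8 wild-type libraries and between 31.7 and 47.7 CPM in the 8 knockout libraries. Dnm2 measured 50.2 to 67.7 CPM with saline and 20.7 to 31.1 CPM with ASO1, so each library matched its labels. The 8 muscle fibre markers, led by Acta1 and Myh4, summed to between 132141 and 228193 CPM. Library sizes carried TMM factors (trimmed mean of M values), and changes are relative to that scale. With library totals alone, the median gene shifted by 0.14 on the log2 scale between KO_PBS and WT_PBS and by 0.11 between KO_ASO and WT_ASO.

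The windows before the RefSeq start sites of Ahnak2, Ahnak and Myof are shown because they cover the related scaffold pair and the ferlin that did not pass the test below. Each line gives 250 bases of GRCm38.p6 up to the start, from RefSeq, 5′ to 3′ on the strand of the gene, with capitals for any match to 8 motifs on either strand.
Ahnak2, chr12:112795743-112795992, minus strand: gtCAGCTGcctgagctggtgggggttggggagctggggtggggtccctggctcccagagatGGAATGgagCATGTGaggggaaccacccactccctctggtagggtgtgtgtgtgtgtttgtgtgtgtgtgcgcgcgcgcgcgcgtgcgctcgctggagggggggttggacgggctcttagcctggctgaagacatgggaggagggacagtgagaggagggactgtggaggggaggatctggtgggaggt
Ahnak, chr19:8989034-8989283, plus strand: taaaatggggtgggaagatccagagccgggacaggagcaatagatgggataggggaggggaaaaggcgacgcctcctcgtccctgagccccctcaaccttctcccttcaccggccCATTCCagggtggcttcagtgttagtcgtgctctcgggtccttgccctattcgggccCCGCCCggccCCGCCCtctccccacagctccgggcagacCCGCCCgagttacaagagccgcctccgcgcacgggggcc
Myof, chr19:38043578-38043827, minus strand: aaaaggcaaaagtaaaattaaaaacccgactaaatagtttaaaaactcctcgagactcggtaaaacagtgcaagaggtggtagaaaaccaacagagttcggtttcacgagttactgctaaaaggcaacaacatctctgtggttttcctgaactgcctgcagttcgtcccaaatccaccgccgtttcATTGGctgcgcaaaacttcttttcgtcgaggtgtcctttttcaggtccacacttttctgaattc
The motifs searched were the TATA box TATAAA, the CCAAT box CCAAT, the GC box GGGCGG, the E-box CANNTG bound by MyoD-type factors, the AP-1 site TGANTCA, the TEAD site GGAATG, and the CArG and MEF2 boxes by name. In the Ahnak2 window, the letters of a TEAD site stood at -189 to -184 and those of an E-box at -248 to -243 and -180 to -175, where -1 is the base before the start. The Ahnak window also held a TEAD match, at -135 to -130, and 3 GC boxes. Myof had a single match, a CCAAT box at -64 to -60. Of 32851 mouse windows of this length, 12.6% held a TEAD match, 66.2% an E-box, 32.7% a GC box and 33.8% a CCAAT box. These 3 windows held no base of an annotated exon, and that of Ahnak2 lay within the span of the annotated gene. For Dysf, the table had 2 windows, with no match in 1 and 3 GC boxes in the other. The Trim72 window lay inside an annotated exon and S100a10 had no entry, so neither is shown.

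Ahnak2 was a low-level transcript in wild-type muscle and stood higher in saline-treated knockout muscle. Ahnak2 (ENSMUSG00000072812, chromosome 12, 112772194 to 112802657, minus strand, GRCm38, protein coding) measured 4.33, 3.65, 5.91 and 5.47 CPM in the WT_PBS libraries. In KO_PBS it measured 91.4, 78.9, 62.8 and 75.3 CPM, and in KO_ASO 10.3, 14.5, 8.51 and 11.5 CPM. In WT_ASO the values were 6.28, 3.59, 6.25 and 4.31 CPM. The 4 KO_PBS libraries lay far above all others, the 4 KO_ASO libraries stood apart in between, and the wild-type groups overlapped. No further pair of groups overlapped. In raw reads, the gene had between 98 and 3315 counts in a library.

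The mean level of Ahnak2 was 4.84 ± 1.04 CPM in WT_PBS and 77.1 ± 11.8 CPM in KO_PBS (SD, n = 4), a fitted fold of 15.8 (log2FC 3.98, SE 0.22). In KO_ASO the mean was 11.2 ± 2.53 CPM (SD, n = 4), which was 231% of the WT_PBS mean, where KO_PBS stood at 1593%. The log2FC of KO_ASO vs KO_PBS was -2.78 (SE 0.20). The effect of ASO1 in the knockout less its effect in wild-type mice, the interaction, was -2.85 (SE 0.29) on the log2 scale. All of these values belong to the contrasts that brought the gene forward.

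The remaining contrasts of Ahnak2 were tested with the quasi-likelihood F test of edgeR across all genes, with Benjamini-Hochberg adjustment. Treated knockout muscle held more Ahnak2 than treated wild-type muscle by a log2FC of 1.14 (SE 0.20), and every KO_ASO library exceeded every WT_ASO library. The adjusted P value was 0.0535, just short of the threshold of 0.05. An exact two-sided permutation test of the same difference gave P = 0.0286, the smallest value that 4 against 4 libraries allow, and 0.171 after adjustment over 12 tests (6 genes in 2 contrasts). The DESeq2 Wald test called the difference, with an adjusted P of 0.000107, and adjusted P values over all alternatives ran from 0.000107 to 0.270. Against WT_PBS, the log2FC of KO_ASO was 1.20 (SE 0.20) with an edgeR adjusted P of 0.0514, and alternatives ran from 2.1e-05 to 0.196. Neither comparison is free of the libraries that selected the gene. The KO_ASO libraries also enter KO_ASO vs KO_PBS, and the interaction contains the difference of KO_ASO and WT_ASO itself, while KO_ASO vs WT_PBS uses the WT_PBS libraries as well.

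In wild-type muscle, ASO1 moved Ahnak2 by a log2FC of 0.07 (SE 0.21, 95% interval -0.38 to 0.51), which did not pass the test (edgeR adjusted P = 0.988). This comparison is not free of the selection either. The interaction contains the difference of WT_ASO and WT_PBS itself, and the WT_PBS libraries also enter KO_PBS vs WT_PBS. The mean in WT_ASO was 5.11 ± 1.37 CPM (SD, n = 4).

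**Figure D1:**
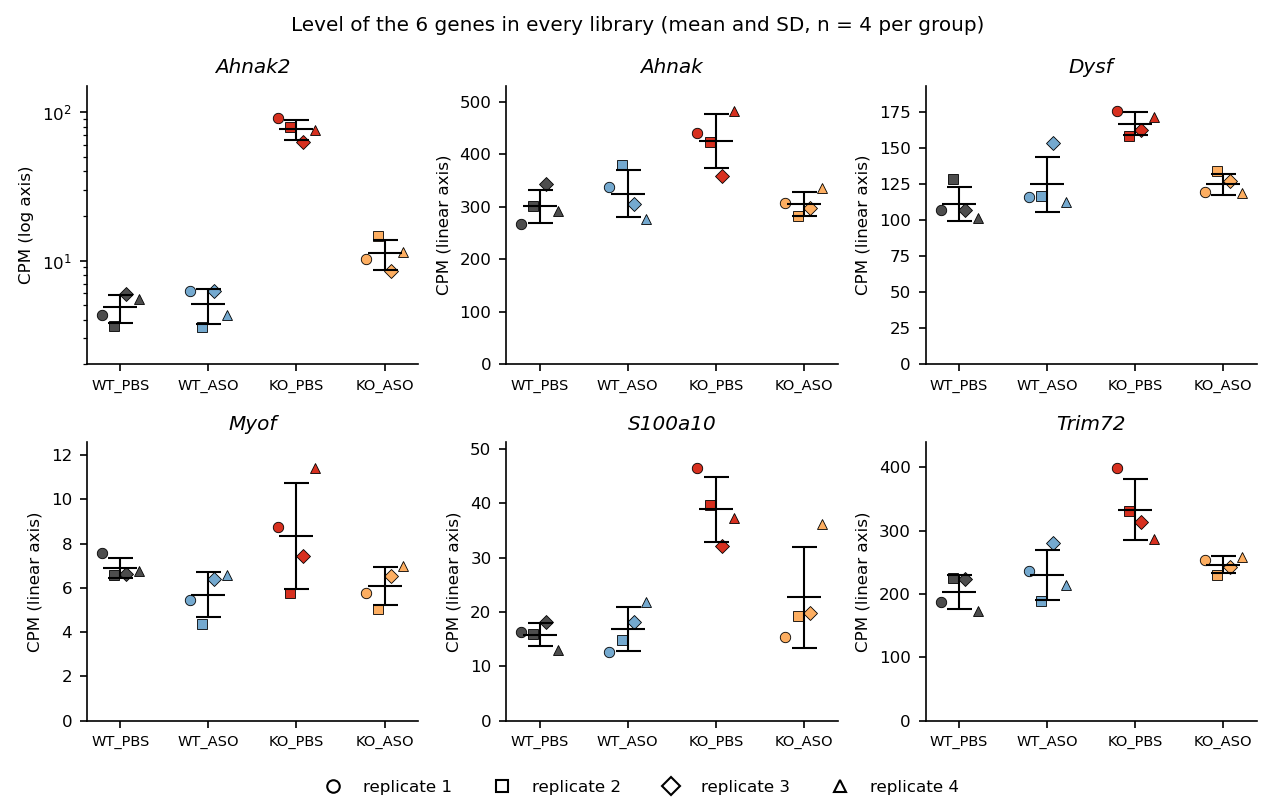
Each panel plots 1 gene, with CPM on the vertical axis (log axis for Ahnak2, linear from 0 for the others) and the 4 groups on the horizontal axis. Points are single libraries, with the marker shape for the replicate number, and the bars give mean and SD (n = 4). Ahnak2 reaches 62.8 to 91.4 CPM in KO_PBS and 8.51 to 14.5 CPM in KO_ASO, and S100a10 in KO_ASO has 1 library at 36.3 CPM.

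Ahnak, the long-known relative and scaffold of repair, was already abundant in wild-type muscle and rose moderately in the knockout. Ahnak (ENSMUSG00000069833, chromosome 19, 8989284 to 9076914, plus strand) measured 267, 302, 343 and 292 CPM in WT_PBS and 440.1, 424, 359 and 482 CPM in KO_PBS. In KO_ASO it measured 308, 282, 297 and 336 CPM, and in WT_ASO 338, 380.2, 306 and 277 CPM. All KO_PBS libraries lay above all WT_PBS and KO_ASO libraries, whereas WT_ASO reached into their range. The log2FC was 0.50 in KO_PBS vs WT_PBS (SE 0.11, edgeR adjusted P = 0.00828), a fold of 1.42. KO_ASO fell below KO_PBS (log2FC -0.48, SE 0.11, edgeR adjusted P = 0.0287). This second call was lost when KO_PBS replicate 1 or 4 or KO_ASO replicate 1, 2 or 3 was left out, with adjusted P between 0.0708 and 0.0784. KO_ASO differed from WT_PBS by a log2FC of 0.02 (95% interval -0.21 to 0.26, edgeR adjusted P = 0.980).

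Set side by side, the related scaffold genes started from very different levels. Per kilobase of exon, the WT_PBS mean was 0.342 ± 0.0732 CPM for Ahnak2 and 15.1 ± 1.58 CPM for Ahnak (SD, n = 4). In KO_PBS the corresponding means were 5.44 ± 0.831 and 21.4 ± 2.57 CPM per kilobase (SD, n = 4). Ahnak2 thus stayed below Ahnak in every group on this scale.

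Dysferlin rose in the knockout and fell again with ASO1. Dysf (ENSMUSG00000033788, chromosome 6, 84008590 to 84211060, plus strand) measured 107, 128, 107 and 101 CPM in WT_PBS and 175, 158, 162 and 171 CPM in KO_PBS. In KO_ASO it measured 119, 134, 127 and 119 CPM, and in WT_ASO 116, 117, 153 and 113 CPM. The 4 KO_PBS libraries were the highest of all 16, with WT_ASO replicate 3 the nearest. The log2FC was 0.59 in KO_PBS vs WT_PBS (SE 0.10, edgeR adjusted P = 0.00127) and -0.42 in KO_ASO vs KO_PBS (SE 0.10, edgeR adjusted P = 0.0307). Leaving out KO_PBS replicate 1 or 4, or replicate 1 or 3 of KO_ASO, removed the latter call, with adjusted P between 0.0634 and 0.0963. The difference between KO_ASO and WT_ASO was 0.00 on the log2 scale, with a 95% interval of -0.21 to 0.21.

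Myoferlin, the second ferlin of the set, was far less abundant than dysferlin and passed the test in no comparison. Myof (ENSMUSG00000048612, chromosome 19, 37899036 to 38043577, minus strand) measured 7.57, 6.59, 6.64 and 6.77 CPM in WT_PBS and 8.74, 5.75, 7.44 and 11.4 CPM in KO_PBS. In KO_ASO it measured 5.76, 5.05, 6.54 and 7.00 CPM, and in WT_ASO 5.43, 4.37, 6.41 and 6.56 CPM. The KO_PBS libraries spread across the range of the other groups, with replicate 4 the highest of all. The log2FC of KO_PBS vs WT_PBS was 0.28 (SE 0.18, 95% interval -0.11 to 0.66, edgeR adjusted P = 0.350), and 0.09 without KO_PBS replicate 4. KO_ASO vs KO_PBS gave -0.46 (SE 0.18, 95% interval -0.84 to -0.07, edgeR adjusted P = 0.185), and -0.28 without KO_PBS replicate 4. WT_ASO lay below WT_PBS in every library (log2FC -0.28, SE 0.18), with an exact permutation P of 0.0286, 0.171 after adjustment over the 12 tests, and an edgeR adjusted P of 0.845. Without WT_ASO replicate 2 that log2FC was -0.17. Per kilobase of exon, WT_PBS held 0.547 CPM of Myof against 13.3 CPM of Dysf.

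S100a10, the small EF-hand protein that joins annexin A2 to Ahnak, had the largest fold after Ahnak2 among the 6 genes. S100a10 (ENSMUSG00000041959, chromosome 3, 93555080 to 93564643, plus strand) measured 16.2, 15.9, 18.1 and 12.9 CPM in WT_PBS and 46.6, 39.7, 32.2 and 37.4 CPM in KO_PBS. In KO_ASO it measured 15.4, 19.2, 19.9 and 36.3 CPM, and in WT_ASO 12.5, 14.8, 18.1 and 21.9 CPM. All KO_PBS libraries exceeded all wild-type libraries, and KO_ASO replicate 4 was the sole treated library within the KO_PBS range. S100a10 rose 2.46-fold in KO_PBS vs WT_PBS (log2FC 1.30, SE 0.23, edgeR adjusted P = 0.00181). KO_ASO vs KO_PBS gave a log2FC of -0.78 (SE 0.23, edgeR adjusted P = 0.0682), which did not pass. Without KO_ASO replicate 4 the difference was -1.10 with an adjusted P of 0.00354, and over all alternatives adjusted P ran from 0.00346 to 0.204.

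Trim72 was the most abundant of the 6 per kilobase, at 90.6 ± 12.1 CPM in WT_PBS and 149 ± 21.5 CPM in KO_PBS (SD, n = 4). Trim72 (ENSMUSG00000042828, chromosome 7, 128003949 to 128011033, plus strand) measured 187, 226, 224 and 173 CPM in WT_PBS and 399.6, 331, 314 and 287 CPM in KO_PBS. In KO_ASO it measured 254, 230.1, 242 and 259 CPM, and in WT_ASO 236, 189, 281 and 214 CPM. The KO_PBS libraries lay above all others, and the KO_ASO libraries lay in a narrow band above every WT_PBS library. The log2FC was 0.72 in KO_PBS vs WT_PBS (SE 0.13, edgeR adjusted P = 0.00175). KO_ASO vs KO_PBS gave -0.44 (SE 0.13, edgeR adjusted P = 0.0686), which passed under other settings, with adjusted P between 0.0198 and 0.243 over all alternatives. KO_ASO against WT_PBS differed by 0.28 (SE 0.13, edgeR adjusted P = 0.578).

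**Figure D2:**
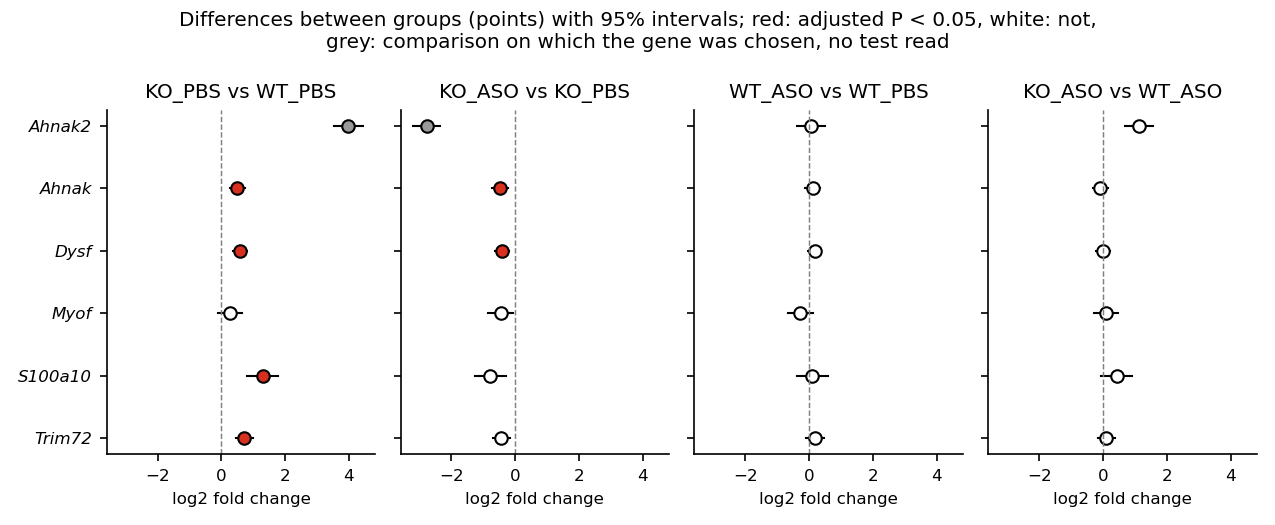
Each panel is 1 comparison, with the log2 fold change on the horizontal axis and the 6 genes on the vertical axis. Points are edgeR estimates and lines 95% intervals, red points have an adjusted P under 0.05 over all genes tested, white points do not, and grey marks Ahnak2 in the contrasts that selected it. In KO_PBS vs WT_PBS the points run from 0.28 for Myof to 3.98 for Ahnak2, and in KO_ASO vs WT_ASO Ahnak2 stands at 1.14 while the others lie between -0.09 and 0.43.

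Leaving out Ahnak2, which was selected on both contrasts, 4 of the other 5 genes passed in KO_PBS vs WT_PBS, all higher, where 12.6% of all genes tested passed (7.43% higher and 5.12% lower). These 5 were also chosen with earlier results of these data known, so the counts are a description. The middle log2FC of the other 5 was 0.59, that of Dysf, and the median over all genes tested was -0.01. In KO_ASO vs KO_PBS, 2 of the other 5 passed, both lower (Ahnak and Dysf), where 3.64% of all genes passed (0.802% higher and 2.83% lower). The middle log2FC of the other 5 was -0.46 there, that of Myof. Both comparisons use the KO_PBS libraries, so their opposite signs are not independent of each other. In bulk muscle, fewer cells of a type and less RNA per cell cannot be told apart in any of these values.

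The comparisons without KO_PBS came next. In WT_ASO vs WT_PBS, 0 of the 6 genes passed in edgeR (0.00668% of all genes) and 0 in DESeq2. At an unadjusted P under 0.05 there were also 0, beside 965 of the 14960 genes tested. In KO_ASO vs WT_ASO, edgeR called 0 of 6 (0.0735% of all genes) and DESeq2 called 1, Ahnak2. There 1 of the 6, again Ahnak2, had an unadjusted P under 0.05, beside 2262 of the 14960 genes tested. In KO_ASO vs WT_PBS, edgeR called 0 of 6 (0.0401% of all genes) and DESeq2 called 1 (Ahnak2). There 3 had an unadjusted P under 0.05 (Ahnak2, S100a10 and Trim72), beside 1229 of the 14960 genes tested. The share of all genes that DESeq2 called was not counted in any of these comparisons.

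The interaction asks whether ASO1 acted differently in the knockout and in wild-type mice. Ahnak2 was selected on this value, so its interaction is a description. Of the other 5 genes, all below 0, edgeR called 0, where 0.575% of all genes were called. At an unadjusted P under 0.05 there were 4 of the 5, beside 1899 of the 14960 genes tested. Dysf came next by P value (log2FC -0.59, SE 0.14, edgeR adjusted P = 0.0710), followed by Ahnak (-0.59, SE 0.16, adjusted P = 0.114) and Trim72 (-0.62, SE 0.18, adjusted P = 0.143). DESeq2 called Dysf, Ahnak and Trim72, and the share of all genes that DESeq2 called was not counted. S100a10 had -0.87 (SE 0.32, edgeR adjusted P = 0.254), and -1.19 with an adjusted P of 0.0374 without KO_ASO replicate 4. For Myof the interaction was -0.18 (SE 0.26).

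A wider list of 50 membrane repair genes, excluding the 6, was set beside them. Of these, 49 were in the table and 47 were tested, since Fer1l4 and Fer1l5 had too few reads and Vamp7 was not matched. The list was drawn up with earlier results of these data known. In KO_PBS vs WT_PBS, 18 of 47 rose, 3 fell and 26 did not pass, beside 7.43% higher and 5.12% lower of all genes, and the median log2FC was 0.23. In KO_ASO vs KO_PBS, 14 of 47 fell and 0 rose, beside 2.83% and 0.802% of all genes, with a median of -0.19. The 14 became 8 without KO_PBS replicate 1, 9 without KO_ASO replicate 1 or 2, and 8 in a fit of the compared groups alone.

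Annexins, calcium-dependent proteins that coat torn membrane, rose in 5 of 7 cases in KO_PBS vs WT_PBS, where 7.43% of all genes were higher. Anxa4 measured 12.8 ± 0.575 CPM in WT_PBS, 38.4 ± 5.30 CPM in KO_PBS and 18.5 ± 1.94 CPM in KO_ASO (SD, n = 4). Its log2FC was 1.58 in KO_PBS vs WT_PBS (SE 0.10) and -1.05 in KO_ASO vs KO_PBS (SE 0.10), both called. Anxa2, the partner of S100a10, had 32.3, 34.9, 37.0 and 33.1 CPM in WT_PBS and 135, 104, 82.4 and 115 CPM in KO_PBS. In KO_ASO it had 30.7, 47.9, 36.3 and 73.2 CPM, with replicate 4 again the highest as for S100a10. Its log2FC was 1.67 in KO_PBS vs WT_PBS (SE 0.23, edgeR adjusted P = 0.00029) and -1.21 in KO_ASO vs KO_PBS (SE 0.23, edgeR adjusted P = 0.00897). In a fit of the compared groups alone the latter had an adjusted P of 0.0559.

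Among 9 partners of dysferlin, Trim72 and Ahnak, 2 rose and 7 did not pass, beside 7.43% of all genes higher. The risers were the muscle caveolin Cav3 (log2FC 0.74, SE 0.16) and Cavin4 (0.77, SE 0.14), a coat protein of muscle caveolae. Both fell in KO_ASO vs KO_PBS, by 0.70 (SE 0.16) and 0.64 (SE 0.14) on the log2 scale. Cavin4 lost this call without KO_PBS replicate 1 (adjusted P = 0.0711). Cav3 lost it without KO_PBS replicate 1, without KO_ASO replicate 1, 2 or 3, and in the fit of the compared groups alone, with adjusted P up to 0.0852.

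Of 5 genes of the calpain system (calcium-activated proteases, their small subunit and their inhibitor), 4 passed, 3 higher and 1 lower, beside 12.6% of all genes. Capn1 did not pass (log2FC 0.04, edgeR adjusted P = 0.809). The small subunit Capns1 (log2FC 0.58, SE 0.07), the ubiquitous Capn2 (0.63, SE 0.09) and the inhibitor Cast (0.62, SE 0.10) rose in KO_PBS vs WT_PBS. The muscle-specific Capn3, which cleaves Ahnak, fell by 0.36 (SE 0.08), from 229 ± 8.96 to 178 ± 8.03 CPM (SD, n = 4), a call that was lost with library totals alone (adjusted P = 0.0696). Capns1, Capn2 and Cast fell in KO_ASO vs KO_PBS, by 0.42, 0.52 and 0.38 on the log2 scale.

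Vesicle fusion and membrane pinching genes passed in 16.7% and 33.3% of cases, beside 12.6% of all genes in KO_PBS vs WT_PBS. Of 6 vesicle and lysosome genes 1 passed, the acid sphingomyelinase Smpd1, which fell by 0.25 (SE 0.07) in KO_PBS vs WT_PBS, a call lost in 8 of 23 alternatives. Of 9 genes of the ESCRT machinery and the EHD proteins, Pdcd6 (log2FC 0.39, SE 0.08) and its partner Pdcd6ip (0.34, SE 0.06) rose, and the ATPase Vps4a fell by 0.25 (SE 0.06). The call for Vps4a was lost with library totals alone, without the filter and without KO_PBS replicate 1. Neither of the 2 remaining ferlins tested, Otof and Fer1l6, passed.

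S100 proteins and galectins rose in 6 of 9 cases, beside 7.43% of all genes. S100a13 rose with a log2FC of 1.39 (SE 0.14) and Lgals3, the galectin that gathers on damaged membranes and is abundant in macrophages, with 3.07 (SE 0.32). Lgals3 measured 24.2, 26.2, 22.5 and 46.2 CPM in KO_PBS and 4.32, 9.65, 5.78 and 9.27 CPM in KO_ASO, where WT_PBS ran from 3.01 to 4.15 CPM. Both fell in KO_ASO vs KO_PBS (log2FC -0.98, SE 0.14, and -2.04, SE 0.31).

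ASO1 in wild-type mice changed 0 of the 47 genes in edgeR (0.00668% of all genes) and 0 by DESeq2. At an unadjusted P under 0.05 there were 8 of the 47, beside 965 of the 14960 genes tested. Treated knockouts against treated wild types also gave 0 of 47 in edgeR (0.0735% of all genes). There 10 of the 47 had an unadjusted P under 0.05, beside 2262 of the 14960 genes tested. By DESeq2 this comparison called 2, Anxa4 (log2FC 0.50) and Vps4a (-0.26), and the share of all genes that DESeq2 called was not counted. The interaction was called for 4 of 47 (0.575% of all genes), all below 0: Anxa4, Capns1, S100a13 and Lgals3.

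**Figure D3:**
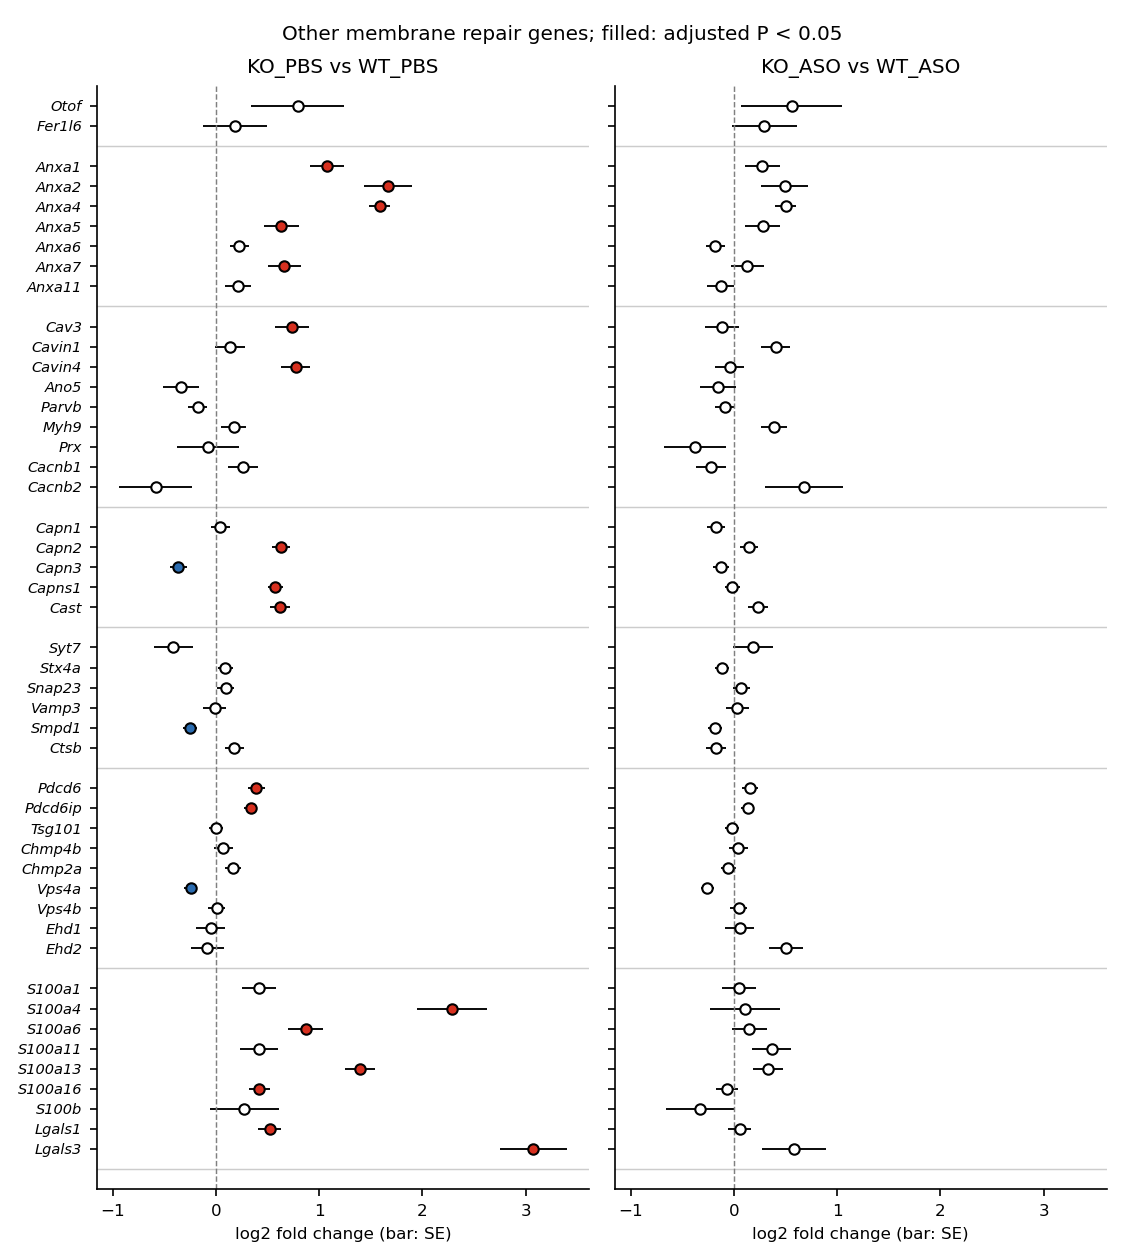
The horizontal axis gives the log2 fold change of each of the 47 tested genes of the wider list, by group of the list from ferlins at the top to S100 proteins and galectins at the bottom, with SE as bars. Red points are called higher and blue points called lower at an adjusted P under 0.05. On the left, 18 genes are higher and 3 lower in KO_PBS vs WT_PBS. On the right, none of the 47 is called in KO_ASO vs WT_ASO by edgeR. There 10 of the 47 have an unadjusted P under 0.05, beside 2262 of the 14960 genes tested.

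Markers of other cell types moved in the same libraries. Of 10 macrophage markers, 9 rose in KO_PBS vs WT_PBS (7.43% of all genes) and 6 fell in KO_ASO vs KO_PBS (2.83% of all genes). Their summed level ran from 47.2 to 76.4 CPM in WT_PBS, 48.3 to 104.5 in WT_ASO, 120.5 to 362 in KO_PBS and 51.6 to 77.5 in KO_ASO. The highest sum belonged to KO_PBS replicate 4, which was also the highest library for Ahnak, Myof and Lgals3 but the third of its group for Ahnak2. Of 6 genes of regenerating or immature fibres, 4 rose in KO_PBS vs WT_PBS (Myog, Ncam1, Chrng and Myh8), beside the same 7.43% of all genes. Myh3 (log2FC 0.29, edgeR adjusted P = 0.518) and Mymk (log2FC 1.26, edgeR adjusted P = 0.203) did not pass. In KO_ASO vs KO_PBS, 2 fell (Ncam1 and Myh8), beside the same 2.83% of all genes. Myog (log2FC -0.76), Chrng (0.30), Mymk (0.54) and Myh3 (0.004) did not pass there. The sum of this marker list ran from 25.6 to 28.8 CPM in WT_PBS, 25.6 to 30.2 in WT_ASO, 73.1 to 109 in KO_PBS and 39.8 to 55.0 in KO_ASO, and KO_PBS replicate 1 was highest for it and for Ahnak2, Dysf, S100a10 and Trim72.

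Of 8 fibroblast markers, 4 rose in KO_PBS vs WT_PBS and 2 fell in KO_ASO vs KO_PBS, with sums of 1062 to 1397 CPM in WT_PBS, 456 to 1995 in WT_ASO, 1353 to 2352 in KO_PBS and 551 to 1866 in KO_ASO. Of 8 muscle fibre markers 2 fell in KO_PBS vs WT_PBS, as did 3 of 5 satellite cell markers and 1 of 6 endothelial markers, where 5.12% of all genes fell and 7.43% rose. Of 5 smooth muscle and pericyte markers 1 rose and 2 fell, and 0 of 5 Schwann cell and 0 of 4 adipocyte markers passed. Of all these markers, Lep was the only one without a read in some libraries, 3 of 16. KO_ASO replicate 4, the library high for S100a10 and Anxa2, was the highest of its group for the macrophage sum (77.5 CPM), the fibroblast sum (1866 CPM) and the sum of regenerating or immature fibre genes (55.0 CPM). The part of these cell types in the values of the 6 genes was not tested.

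**Figure D4:**
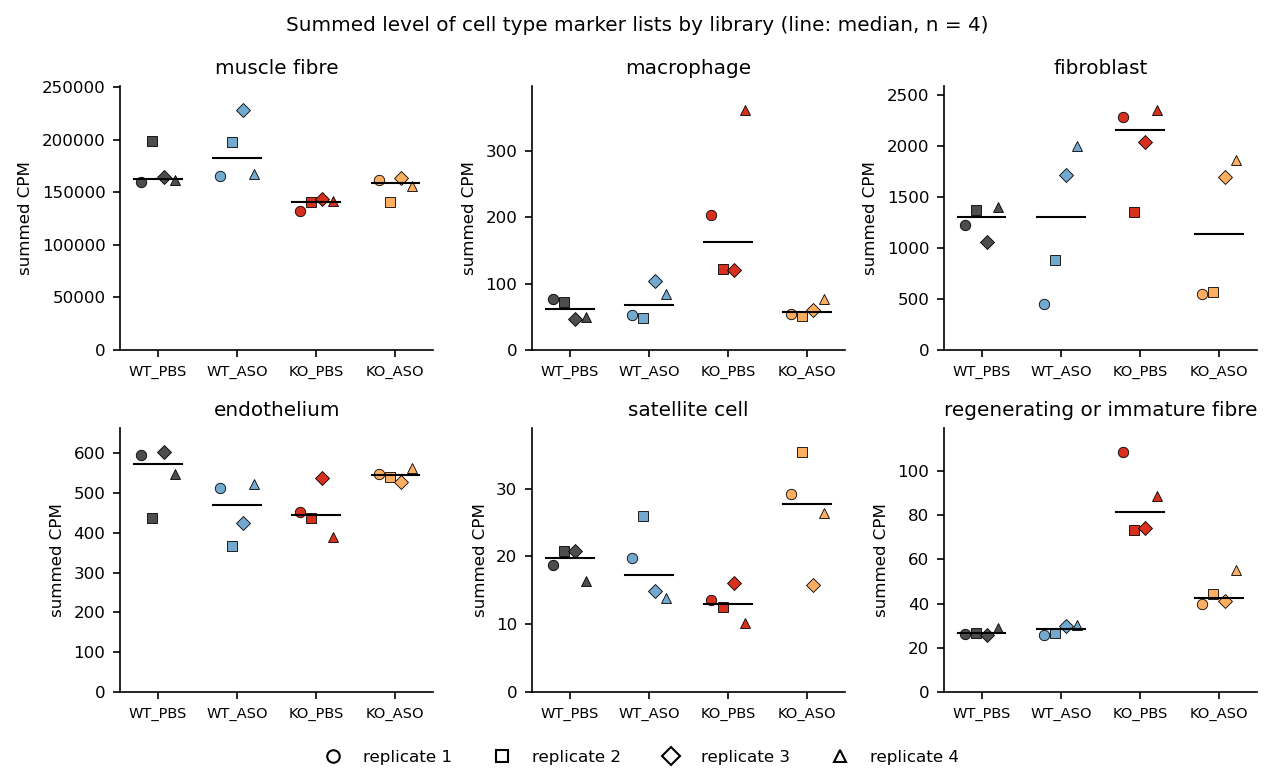
Each panel gives the summed CPM of 1 marker list on the vertical axis, from 0, for the 4 groups, with a point per library, the marker shape for the replicate number and a line at the group median (n = 4). Macrophage sums reach 362 CPM in KO_PBS replicate 4, and the sums of regenerating or immature fibre genes lie between 73.1 and 109 CPM in KO_PBS, above those of the other groups.

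Across all 16 libraries, the genes most like Ahnak2 by Pearson r of log2 CPM were Anxa4 (r = 0.984), the adhesion molecule Ncam1 (0.982), Tnfrsf23 (0.980), Plet1 (0.970) and Nfkb2 (0.967). Those most opposed were Mapk9 (-0.957), Smco1 (-0.948) and Thoc7 (-0.940). The 16 points fall into the 4 groups, so r covers differences between groups as well as within them and is given as a description. Ncam1 ran from 6.82 to 8.63 CPM in WT_PBS and measured 38.3 ± 7.02 CPM in KO_PBS and 13.1 ± 2.39 CPM in KO_ASO (SD, n = 4).

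The other members had closest genes of their own. For S100a10 they were its partner Anxa2 (r = 0.969), Gpx8 (0.953) and Srgap3 (0.952), and for Trim72 Klhl40 (0.940), Coq8b (0.925) and Mustn1 (0.925). Dysf lay closest to E130218I03Rik (0.926), Hspb8 (0.925) and Lgals1 (0.920), and Ahnak to Myo5a (0.898), Myd88 (0.891) and Slc2a1 (0.873). The collagen receptor Ddr2 (0.905) and Rab3il1 (0.903) were among the genes closest to Myof. Among the 6 genes themselves, r was highest for Dysf with Trim72 (0.885) and lowest for Ahnak with Myof (0.391). With Ahnak2, r was 0.855 for S100a10, 0.850 for Trim72, 0.845 for Dysf, 0.756 for Ahnak and 0.504 for Myof.

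The genes around Ahnak2 on chromosome 12 were read as well. Within 100 kb lay 7 tested protein-coding genes: Akt1, Zbtb42, Cep170b, Pld4, Clba1, Cdca4 and Gpr132. In KO_PBS vs WT_PBS 1 of the 7 passed, beside 12.6% of all genes. It was Pld4, a phospholipase D family member of myeloid cells, at 1.33 on the log2 scale in KO_PBS vs WT_PBS (SE 0.30, edgeR adjusted P = 0.00844) and -1.48 in KO_ASO vs KO_PBS (SE 0.30, edgeR adjusted P = 0.0133). The others had log2FC values in KO_PBS vs WT_PBS from 0.01 for Akt1 (SE 0.08) to 1.0 for Clba1 (SE 0.53, edgeR adjusted P = 0.235).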

How the data were processed

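Per the labels, libraries were stranded and made from messenger RNA of the tibialis anterior. The deposited table holds raw counts of reads, 1 row per Ensembl gene, without normalization. The submitters' notes list HTSeq 0.6.1p1, STAR 2.5.3a, Bowtie2 2.2.8 and cutadapt 1.10 with GRCm38, but not the role of each. The strand setting is not given in the sources used here. Symbols came from GENCODE M21, which matched all 29730 identifiers.

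Counts were filtered with filterByExpr by group and tested with edgeR 4.0.16 under R 4.3.3 (TMM, robust quasi-likelihood F test, 1 mean per group over all 16 libraries). P values were adjusted over 14960 genes by Benjamini-Hochberg, and a gene was called under 0.05. The SE is the log2FC divided by the root of F. Replicates were taken as separate mice and correlated at r = 0.974 to 0.988. The mean chi-square per gene between replicates of a group was at least 20.4, so no replicates agreed within sampling noise. The biological coefficient of variation was 18.7%. Correlations used log2 CPM with a prior count of 2. At low levels, counting adds noise to the spread between mice, with at least 98 counts for Ahnak2. The fit was tested on simulated data.

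The 6 genes, the wider list and the marker lists were chosen with earlier results of these data known. Genes named were the 6, Bin1 and Dnm2, up to 2 called genes per direction of each group of the wider list, those most like each of the 6, and neighbours of Ahnak2 within 100 kb. Of the genes this rule names, 1 is not reported here. Capn1, Cast, Otof, Fer1l6 and the marker genes named were added after their values were seen. Alternatives were DESeq2 1.42.0, limma 3.58.1 (voom), other size factors, no filter, the compared groups alone, a replicate block, a fold threshold of 2 and leaving out each library.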

Additional observations from a re-analysis of the deposited data

Results flagged for a closer look

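The effect of ASO1 differed between the genotypes, by the interaction test of edgeR across all genes, for 4 named genes of the wider list, where 0.575% of all genes were called. These genes had been named for their calls in KO_PBS vs WT_PBS, which shares the KO_PBS and WT_PBS libraries with the interaction. For Anxa4 it was -1.08 (adjusted P = 0.00344), for Capns1 -0.59 (adjusted P = 0.0117), for Lgals3 -2.49 (adjusted P = 0.0222) and for S100a13 -1.06 (adjusted P = 0.0261). For Ahnak2 the interaction was -2.85 on the log2 scale, a description without a test, since the gene had been chosen partly for this value. In each case KO_ASO lay below KO_PBS, and the difference between WT_ASO and WT_PBS did not pass the test. The call for S100a13 was lost in 7 of 22 alternatives, when WT_PBS replicate 2 or 4, WT_ASO replicate 1 or 3, KO_PBS replicate 1 or KO_ASO replicate 1 or 2 was left out (adjusted P up to 0.0789). That for Lgals3 was lost in 3, without the filter, without WT_PBS replicate 4 and without KO_ASO replicate 3 (adjusted P up to 0.0769).

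Single libraries stood apart from the other 3 of their group in 9 of 76 combinations of gene and group examined, by the gap to the nearest library over the range. Chance gives about 5%. WT_ASO replicate 3 was the highest of its group for Dysf (153 CPM, the others 113 to 117), Smpd1 (103 CPM, the others 92.5 to 93.9) and Lgals3 (8.05 CPM, the others 3.70 to 3.82). KO_ASO replicate 4 was the lowest for Cavin4 (134 CPM, the others 182 to 189.8) and Vps4a (64.5 CPM, the others 68.3 to 68.6). KO_PBS replicate 4 was high for Lgals3 (46.2 CPM, the others 22.5 to 26.2) and KO_PBS replicate 3 for Smpd1 (89.6 CPM, the others 79.1 to 80.6). WT_PBS replicate 4 was low for Cav3 (48.6 CPM, the others 58.6 to 59.6) and WT_ASO replicate 1 for Capns1 (155 CPM, the others 174 to 177).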

How the results depend on the processing

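Of 822 values of the 6 genes under alternative settings, 775 kept their direction and their side of the threshold, 9 fell below it, 23 passed it and 15 changed sign, all 15 of differences that had not passed. Counts below include Ahnak2, which was selected on KO_PBS vs WT_PBS, KO_ASO vs KO_PBS and the interaction. The share of all genes called under each alternative was not counted. In KO_PBS vs WT_PBS, 5 of 6 genes were called whichever library was left out, and 2 with a fold threshold of 2 as well. In KO_ASO vs KO_PBS, where 3 were called, leaving out a library gave 1 to 4, the fold threshold 1, and library totals alone, DESeq2 and limma-voom 5 each. In KO_ASO vs WT_ASO, 0 became 1 (Ahnak2) with library totals alone and DESeq2, and 0 to 1 without a library, called without KO_PBS replicate 1 or KO_ASO replicate 3. In KO_ASO vs WT_PBS, 0 became 1 with DESeq2 size factors, library totals and DESeq2, and 0 to 1 without a library, called without WT_ASO replicate 2 or KO_ASO replicate 3. The interaction was called for 2 genes with library totals, 4 with DESeq2 and 1 to 2 without a library. For the wider list, 21 calls in KO_PBS vs WT_PBS ran from 17 to 21 without a library, and 14 in KO_ASO vs KO_PBS from 8 to 14, with 8 in the compared groups alone. In KO_ASO vs WT_ASO its 0 calls became 1 with library totals (Anxa4), 2 with DESeq2 (Anxa4 and Vps4a) and 0 to 1 without a library (Anxa4 without KO_ASO replicate 3).

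Signs changed as follows. Dysf in KO_ASO vs WT_ASO was -0.0015 with DESeq2 size factors and with DESeq2, and -0.044 to 0.12 without a library. Ahnak in the same comparison was 0.017 with library totals, against -0.09. Without a library, Myof there ran from -0.013 to 0.18, Ahnak in KO_ASO vs WT_PBS from -0.030 to 0.092, Ahnak2 in WT_ASO vs WT_PBS from -0.048 to 0.20 and S100a10 from -0.061 to 0.21. The Myof interaction ran from -0.31 to 0.010, above 0 without KO_PBS replicate 4.

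Replicate numbers were not taken to pair the mice. Of 24 pairs with the same number, 11 had deviations that correlated at over 0.1 (range -0.08 to 0.44). Each library was also set against those of the other groups, most of which bore another number, and 14 of 16 correlated best with their own number. This comes from the data only. The labels do not explain it, and the main fit has no term for it. A replicate block gave 5, 3, 0, 0 and 0 calls of the 6 genes in the pairwise comparisons and 1 in the interaction, all unchanged, and for the wider list in KO_ASO vs WT_ASO it gave 1 call in place of 0 (Anxa4, adjusted P = 0.0487). The causes of these differences were not tested. Depth was lowest for Ahnak2 and Myof among the 6 genes, with as few as 98 and 151 counts in a library.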
